A study of Homo sapiens with 6 samples.

Results

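The collagen chain genes are the rows whose symbol has the form COL, a type number, the letter A and a chain number, that is, the alpha chains of the collagen types as the table names them. This rule found 43 of the 23245 gene rows with a usable symbol. They were followed in L3.6pl, a cell line of human pancreatic carcinoma, with 3 libraries of parental cells carrying wild-type ARID1A and 3 of ARID1A-deficient cells. All cells grew in the same serum-containing medium, and the labels name no drug. Titles of the second group carry the tag ARID1Ako, for knockout. By what means the gene was disrupted, and whether the cells are 1 clone or several, is not stated in the labels, and no library restores ARID1A, so ARID1A loss and other differences between the cells cannot be told apart.

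Collagens are matrix proteins in which 3 alpha chains wind into a helix of repeated glycine triplets. Fibril-forming collagens build the tensile fibres of connective tissue, network collagens such as type IV form the sheet of basement membranes, fibril-associated collagens sit on the fibre surface, and a few collagens span the cell membrane. Chains are hydroxylated and folded in the endoplasmic reticulum, secreted as procollagen, trimmed by proteases and crosslinked by lysyl oxidases. In pancreatic tumours most fibrillar collagen is known to come from stromal fibroblasts, while carcinoma cells make basement membrane collagens and some fibrillar chains of their own.

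Levels are in FPKM, which divides the fragments of a gene by its transcript length and by library size. Transcript levels of different genes can therefore be set side by side on this scale. Total fragments per library are unknown. Depth was estimated from the most common ratio between parental library 1 and each library among the rows with the lowest values. It was 0.732 to 1.27 times that of parental library 1. ARID1A, whose product belongs to the SWI/SNF complex that moves nucleosomes, stood at 11.8, 6.76 and 9.42 FPKM in parental cells against 3.55, 3.28 and 3.61 FPKM in deficient cells (limma adjusted p = 0.00610). The transcript was thus lower in the deficient group and still measurable. Long transcripts read lower in parental library 2 than in the others of its group. The slope of log2 values on log2 transcript length was -0.0449 there, against 0.0479 and 0.0242 in parental libraries 1 and 3. In deficient libraries 1, 2 and 3 it was -0.00841, -0.0188 and 0.0000227, so library 2 had the lowest slope in both groups. Collagen transcripts are long, with a median of 6494 bases among tested members against 3524 bases over all tested genes, and 10 of 17 tested members (58.8%) had their lowest parental value in library 2, against 43.0% of all tested genes. The part of this trend in the results was not tested beyond the fits with a length term given beside them.

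Of the 43 members, 4 were listed at 0 in every library (COL6A5, COL11A2, COL21A1 and COL25A1) and 22 more stayed under the mean of 0.5 FPKM required for testing. The remaining 17 were tested with limma on log2(FPKM + 1) together with all other expressed genes, and a gene was called past the threshold at a Benjamini-Hochberg adjusted p under 0.05. Of these 17, 11 were higher in ARID1A-deficient cells, 2 were lower and 4 did not pass. Over all 12826 tested genes the share called was 7.82% higher and 8.11% lower, or 15.9% in either direction. Among the 17 members the shares were 64.7% and 11.8%. The median log2 change was 0.82 over the tested members and -0.01 over all tested genes. COL1A2 reached the mean through the deficient libraries alone, so a change in that gene was a condition of its being tested. The groups did not overlap for 15 of the 17 members, 11 higher and 4 lower, and for 35.3% of all tested genes (16.7% higher, 18.6% lower). The plot of the change in each tested member sets apart 3 fibril-forming chains with very large rises from the other higher calls.

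**Figure D1:**
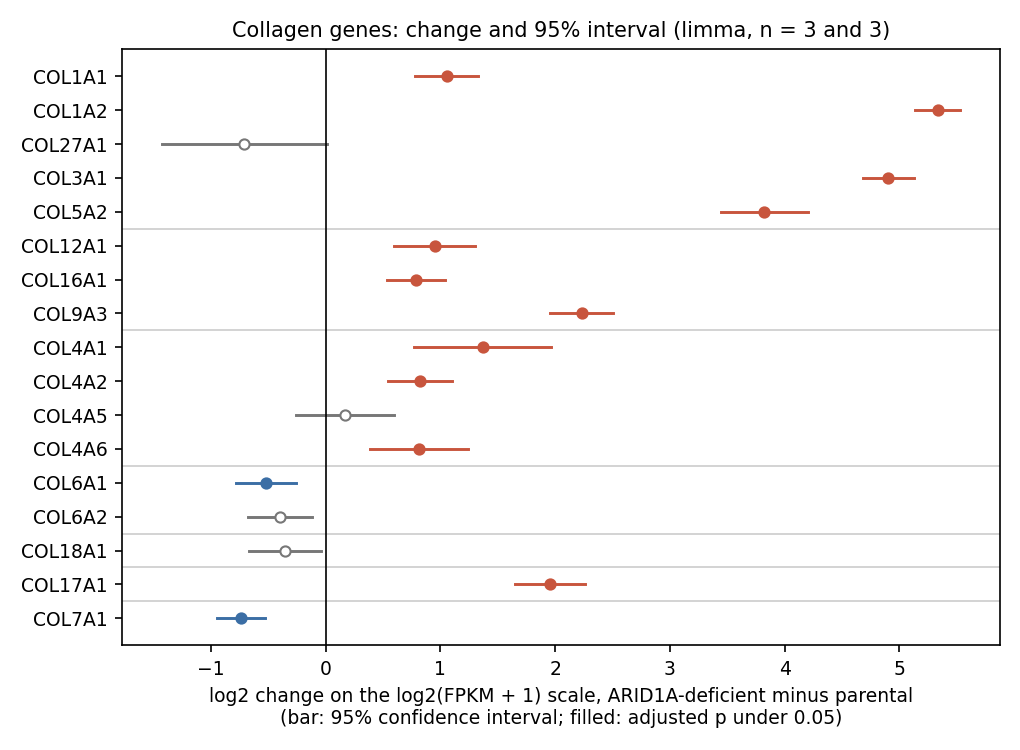
Change in each of the 17 tested collagen genes between 3 ARID1A-deficient and 3 parental libraries, on the log2(FPKM + 1) scale, with 95% confidence intervals from limma. Filled points passed the adjusted threshold, red higher and blue lower, and grey lines part the collagen classes. COL1A2, COL3A1 and COL5A2 lie at 3.82 or above, and all other members lie under 2.5.

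The summed FPKM of all 43 members was 146, 112 and 129.9 in the parental libraries and 412, 388 and 422 in the deficient libraries, a ratio of means of 3.15. COL1A1, COL1A2, COL3A1 and COL5A2 together made up 18.3% to 22.8% of this sum in parental libraries and 54.9% to 55.5% in deficient ones. Without these 4 chains the ratio was 1.76. The FPKM of all gene rows also summed to unequal totals, 576084 to 792187 in parental and 620223 to 725307 in deficient libraries. The ratios were not corrected for this. In parental cells the most abundant chain was COL4A2 at 33.8 ± 4.6 FPKM, followed by COL1A1 at 20.9 ± 1.74 and COL4A1 at 13.2 ± 4.79 FPKM (SD, n = 3 each). COL4A5, COL4A6, COL18A1, COL27A1 and COL17A1 came next, at 6.87 to 8.99 FPKM, and these neighbours in the order lay within each other's spread. In deficient cells COL3A1 led at 92.9 ± 5.32 FPKM, ahead of COL4A2 at 60.1 ± 2.36 FPKM. COL1A1, COL5A2 and COL1A2 followed at 44.7 ± 5.36, 44.4 ± 4.83 and 43.1 ± 0.842 FPKM and did not differ beyond their spread. The order thus changed at the top from a basement membrane chain to a fibrillar one.

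**Figure D2:**
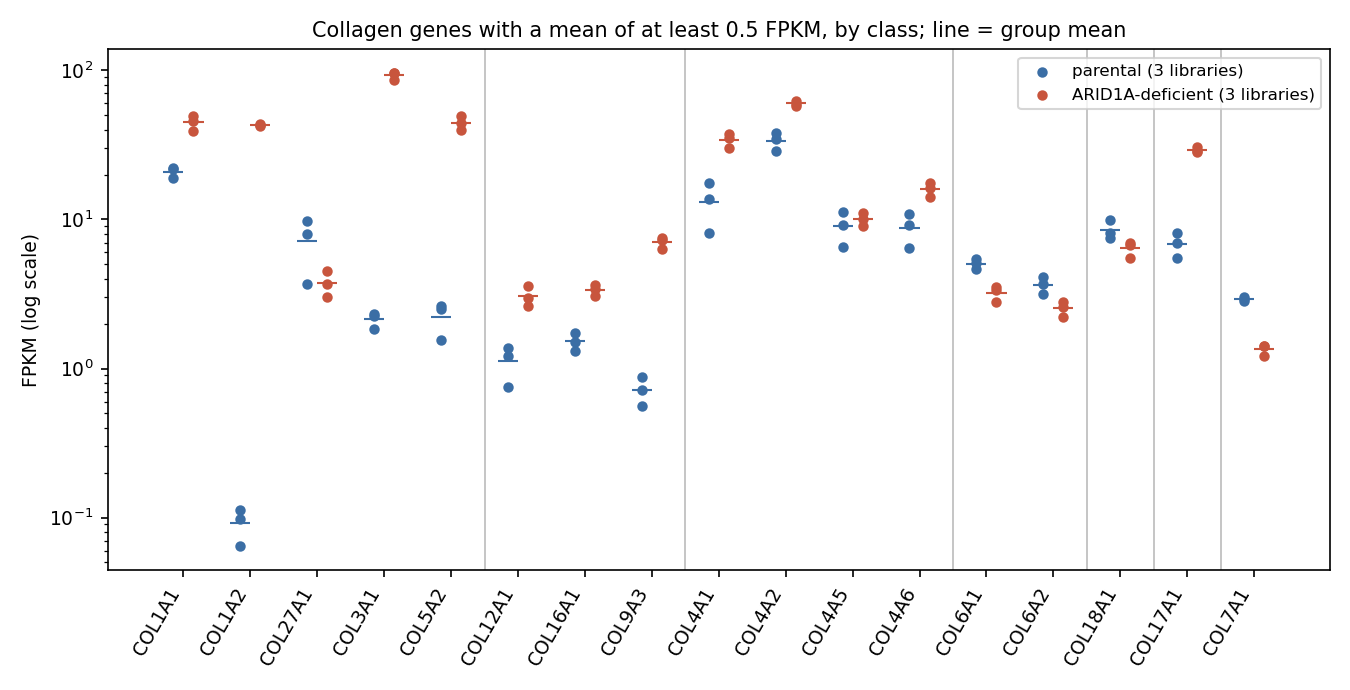
FPKM of each of the 17 tested collagen genes in 3 parental (blue) and 3 ARID1A-deficient (red) libraries on a log scale, with a line at each group mean and grey lines between collagen classes. From left to right the classes are fibril-forming, fibril-associated, basement membrane network, beaded filament, endostatin-type, transmembrane and anchoring fibril. COL1A2 lies between 0.0642 and 0.113 FPKM in the parental libraries and between 42.2 and 43.9 FPKM in the deficient libraries.

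Fibril-forming collagens had 5 tested members of 11, with 4 higher, none lower (none either at an unadjusted p under 0.05) and 1 not past the threshold in limma. COL1A2 encodes the alpha 2 chain of type I collagen, the main collagen of bone, tendon and scar. It was almost undetected in parental cells, at 0.113, 0.0642 and 0.0985 FPKM, and abundant in deficient cells, at 42.2, 43.1 and 43.9 FPKM. The change was 5.33 on the log2(FPKM + 1) scale (SE 0.08, limma adjusted p = 4.53e-07). Parental values were near the bottom of the measured range, so the ratio of means of 468 is imprecise.

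COL1A1, the alpha 1 chain of the same trimer, was already expressed in parental cells. Its parental values were 21.7, 22.2 and 18.9 FPKM, and its deficient values were 39.0, 45.6 and 49.6 FPKM. The groups did not overlap, and the difference was 2.14-fold (log2 change 1.06, SE 0.12, limma adjusted p = 0.00149). The FPKM of COL1A1 was 192, 345 and 192 times that of COL1A2 within the parental libraries and 0.925, 1.06 and 1.13 times within the deficient libraries. Parental cells thus held transcripts of the alpha 1 chain with hardly any of its partner, and deficient cells held both at about equal FPKM. Type I collagen is usually a pair of alpha 1 chains with a single alpha 2 chain, and a trimer of alpha 1 chains alone is also known.

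COL3A1 encodes the chain of type III collagen, which forms fibrils together with type I in soft tissues. It rose from 2.33, 1.85 and 2.24 FPKM to 95.9, 86.8 and 96.1 FPKM (log2 change 4.90, SE 0.09, limma adjusted p = 1.10e-06). COL5A2, a chain of the type V collagen that seeds fibrils, was also far higher in deficient cells. It went from 2.64, 1.54 and 2.52 FPKM to 49.3, 39.7 and 44.2 FPKM, or 19.9-fold (log2 change 3.82, SE 0.16, limma adjusted p = 2.22e-05). For both genes every deficient library exceeded every parental one by more than 10 times.

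COL5A1 usually supplies the other chains of the type V trimer, and it stayed low. COL5A1 was at 0.159, 0.102 and 0.0623 FPKM in parental cells against 0.131, 0.120 and 0.170 FPKM in deficient cells, and the groups overlapped. The COL5A1 to COL5A2 ratio was 0.0248 to 0.0659 in parental and 0.00266 to 0.00384 in deficient libraries. COL5A3, a further type V chain, reached 0.0903 FPKM at most. The rise in COL5A2 was therefore measured without a comparable level of either partner.

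COL27A1, a fibril-forming chain of cartilage, measured 9.72, 3.70 and 8.0 FPKM in parental and 4.48, 3.04 and 3.70 FPKM in deficient libraries. Parental library 2 overlapped the deficient group, and the difference did not pass (log2 change -0.71, 95% interval -1.43 to 0.01, limma adjusted p = 0.176). It did pass without parental library 2 (adjusted p = 0.000990) and with the length term (adjusted p = 0.0154). Among the 6 fibril-forming members not tested, COL11A1, a partner in cartilage fibrils, had no parental value above 0. It read 0.465, 0.467 and 0.390 FPKM in deficient cells. With no filter on low values COL11A1 was among the higher calls (limma adjusted p = 0.000334). In that fit all parental entries of COL11A1 were exactly 0 and so had no spread, and such entries can be failed estimates. COL2A1, the chain of cartilage type II collagen, stayed between 0.0548 and 0.230 FPKM.

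The ratios of partner chains within a library do not depend on how the library was scaled. They were compared for 5 pairs of chains, each pair from 1 collagen type. With 3 libraries against 3 the smallest exact two-sided permutation p is 0.1, so no pair could pass 0.05. For 4 of 5 pairs the groups did not overlap, with exact permutation p = 0.1 (0.125 adjusted over the 5 pairs). For COL6A1 to COL6A2 they overlapped, with exact permutation p = 0.2. The shift was -7.82 on the log2 scale for COL1A1 to COL1A2 and -3.88 for COL5A1 to COL5A2. The SD of the log2 ratio was 0.488 in parental and 0.148 in deficient libraries for the first pair. For the second pair it was 0.781 and 0.269 (n = 3 each).

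**Figure D3:**
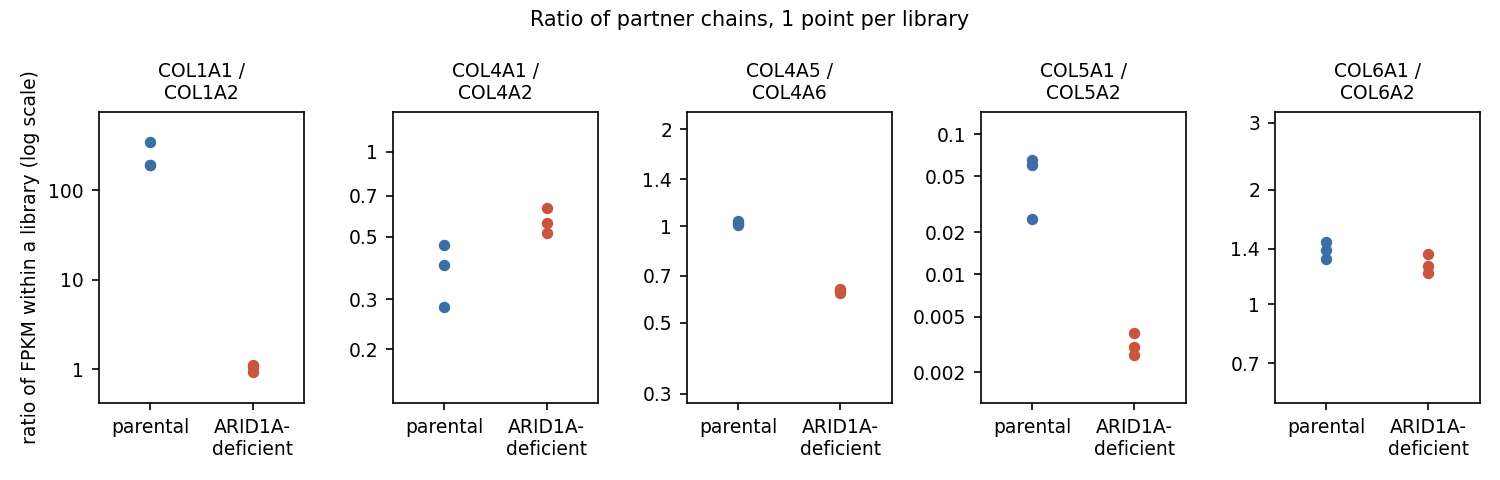
Ratio of the FPKM of 2 partner chains within each library, on log axes that differ between panels, for 3 parental (blue) and 3 ARID1A-deficient (red) libraries. COL1A1 to COL1A2 falls from 192 or above to near 1, and COL4A5 to COL4A6 falls from 1.004 to 1.03 down to 0.617 to 0.639 with little spread.

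Basement membrane collagens had 4 of 6 members tested, with 3 higher, none lower (none either at an unadjusted p under 0.05) and 1 not past the threshold in limma. COL4A1 and COL4A2 encode the chains of the most widespread type IV network, which underlies epithelia and vessels. COL4A1 measured 17.7, 8.15 and 13.7 FPKM in parental and 37.7, 29.95 and 35.1 FPKM in deficient libraries (log2 change 1.37, SE 0.25, limma adjusted p = 0.0127). Its call ended without deficient library 1 or 3 (highest limma adjusted p = 0.0624), although the log2 change stayed between 1.08 and 1.60 under the alternatives. COL4A2 rose 1.78-fold, from 37.9, 28.8 and 34.6 to 59.6, 58.0 and 62.7 FPKM (log2 change 0.82, SE 0.12, limma adjusted p = 0.0046). Both chains were lowest in parental library 2. The COL4A1 to COL4A2 ratio was 0.466, 0.283 and 0.396 in parental and 0.632, 0.516 and 0.560 in deficient libraries. COL4A1 thus shifted by more than its partner, by 0.60 on the log2 scale, or 0.40 without parental library 2.

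COL4A5 and COL4A6 encode chains of a type IV network found in the basement membranes of skin, smooth muscle and some ducts. In parental libraries 1, 2 and 3 COL4A5 measured 11.2, 6.54 and 9.22 FPKM, and COL4A6 measured 10.8, 6.41 and 9.18 FPKM. In the deficient libraries COL4A5 measured 11.0, 9.02 and 10.0 FPKM, which overlapped the parental range (log2 change 0.17, 95% interval -0.26 to 0.59, limma adjusted p = 0.60). With the length term COL4A5 passed, at a log2 change of 0.30 (limma adjusted p = 0.0359). COL4A6 measured 17.6, 14.1 and 16.2 FPKM and was 1.81-fold higher (log2 change 0.81, SE 0.18, limma adjusted p = 0.0248). That call ended without parental library 3 or any single deficient library (highest limma adjusted p = 0.103). The ratio of the pair was steadier than either level. COL4A5 to COL4A6 was 1.03, 1.02 and 1.004 in parental libraries and 0.628, 0.639 and 0.617 in deficient ones, a shift of -0.70 on the log2 scale with SDs of 0.0210 and 0.0247. COL4A3 and COL4A4, which form the network of the kidney filter with COL4A5, stayed under 0.3 FPKM in every library.

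The type IV genes lie head to head in pairs on opposite strands, and their start regions are shown because both members of the first pair rose, while in the second COL4A6 rose and COL4A5 did not pass the threshold. In RefSeq, build GRCh38.p14, a window from 250 bases before to 50 bases after the start was at hand for 31 of 43 members and 7 of the 13 called ones. The starts of COL4A1 and COL4A2 lie 127 bases apart, and 226 bases belong to both windows. The starts of COL4A5 and COL4A6 lie 380 bases apart, and COL4A6 has another start 1416 bases from that of COL4A5. Windows are printed 5′ to 3′ on the strand of the gene, and capitals mark the motifs found on either strand: the CCAAT box (CCAAT), the GC box (GGGCGG), the TATA box (TATAAA) and the AP-1 site (TGANTCA). COL4A2 is at chr13:110307034-110307333 on the plus strand, the first COL4A6 window at chrX:108439409-108439708 and the second at chrX:108438373-108438672, both on the minus strand, COL4A5 at chrX:108439588-108439887 on the plus strand, and COL17A1, the called member with the largest change among those with a window, at chr10:104085831-104086130 on the minus strand.
COL4A2: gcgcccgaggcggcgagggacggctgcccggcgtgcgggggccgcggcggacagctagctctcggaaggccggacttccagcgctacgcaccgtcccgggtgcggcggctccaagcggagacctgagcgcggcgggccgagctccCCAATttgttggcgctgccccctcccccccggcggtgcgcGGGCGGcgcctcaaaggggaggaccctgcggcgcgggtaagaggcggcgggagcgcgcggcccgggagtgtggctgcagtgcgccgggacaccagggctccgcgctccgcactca
COL4A6 first start: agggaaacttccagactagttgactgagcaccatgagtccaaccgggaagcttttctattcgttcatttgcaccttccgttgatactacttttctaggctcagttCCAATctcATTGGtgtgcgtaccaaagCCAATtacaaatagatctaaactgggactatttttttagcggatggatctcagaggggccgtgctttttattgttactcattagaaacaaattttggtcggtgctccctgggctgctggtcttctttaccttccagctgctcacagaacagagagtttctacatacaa
COL4A6 second start: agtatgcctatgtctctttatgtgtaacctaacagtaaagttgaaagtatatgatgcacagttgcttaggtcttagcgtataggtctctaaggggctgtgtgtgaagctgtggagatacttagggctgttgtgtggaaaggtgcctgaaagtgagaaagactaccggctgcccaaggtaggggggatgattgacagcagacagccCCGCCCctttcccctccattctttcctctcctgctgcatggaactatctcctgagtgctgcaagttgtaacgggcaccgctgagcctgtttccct
COL4A5: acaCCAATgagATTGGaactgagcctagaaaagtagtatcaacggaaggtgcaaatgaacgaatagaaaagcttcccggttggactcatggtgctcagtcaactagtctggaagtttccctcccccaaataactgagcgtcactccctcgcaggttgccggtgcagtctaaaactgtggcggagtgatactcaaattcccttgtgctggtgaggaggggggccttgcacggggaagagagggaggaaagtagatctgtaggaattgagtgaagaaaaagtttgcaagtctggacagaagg
COL17A1: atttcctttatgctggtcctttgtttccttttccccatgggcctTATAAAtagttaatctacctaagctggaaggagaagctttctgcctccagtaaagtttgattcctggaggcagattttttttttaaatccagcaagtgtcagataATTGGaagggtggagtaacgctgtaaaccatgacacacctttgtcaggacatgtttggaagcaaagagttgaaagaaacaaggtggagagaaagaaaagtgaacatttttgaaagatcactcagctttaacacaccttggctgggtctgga

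Counted from the gene's start, the COL4A2 window held a CCAAT box at -105 and a GC box at -65. Both motifs lie in the stretch shared with COL4A1, where they stand at -26 and -67. The windows of COL4A5 and of the first COL4A6 start shared 121 bases with 2 CCAAT boxes, at -247 and -239 from COL4A5 and at -145 and -137 from COL4A6, and COL4A6 had another at -118. The second COL4A6 start had a GC box at -45 and no CCAAT box. The COL17A1 window held a CCAAT box at -101 and a TATA box at -206. Of 35116 RefSeq windows of this length, 34.6% held a CCAAT box, 45.0% a GC box, 11.5% a TATA box and 7.71% an AP-1 site, and none of the 5 printed windows held these letters of the AP-1 site. The expression values are per gene, so they do not show which COL4A6 start was used.

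Fibril-associated collagens had 3 of 10 members tested, and all 3 were higher. COL9A3, a chain of the type IX collagen that coats cartilage fibrils, showed the largest rise of the 3, at 9.82-fold. It read 0.717, 0.879 and 0.562 FPKM in parental and 6.32, 7.32 and 7.56 FPKM in deficient libraries (log2 change 2.23, SE 0.11, limma adjusted p = 5.26e-05). Its partners COL9A1 and COL9A2 were under the level needed for testing, and COL9A2 was listed at 0.174, 0.127 and 0 FPKM against 0.215, 0.342 and 0.313 FPKM. COL12A1, which decorates type I fibrils, measured 1.38, 0.753 and 1.21 FPKM in parental and 3.57, 2.64 and 2.99 FPKM in deficient libraries (log2 change 0.95, SE 0.15, limma adjusted p = 0.00668). COL16A1, a minor fibril-associated chain, rose from 1.31, 1.74 and 1.51 to 3.08, 3.61 and 3.39 FPKM (log2 change 0.79, SE 0.11, limma adjusted p = 0.00358). Of these genes, COL12A1 had its lowest value in library 2 of both groups and COL16A1 its highest. The other 7 members of the class, which include COL14A1, COL19A1 and COL22A1, reached 0.342 FPKM at most.

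COL17A1 encodes a transmembrane collagen of hemidesmosomes, the junctions that fix basal epithelial cells to the basement membrane. Parental cells gave 8.12, 5.52 and 6.97 FPKM, and deficient cells gave 28.9, 28.5 and 30.5 FPKM. The groups were far apart, at 4.26-fold (log2 change 1.96, SE 0.13, limma adjusted p = 0.000148). The 3 other transmembrane members, COL13A1, COL23A1 and COL25A1, stayed at or under 0.439 FPKM.

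The 2 members called lower were COL7A1, of the anchoring fibrils, and COL6A1, of the beaded filaments. COL7A1 encodes the anchoring fibrils that tie the epithelial basement membrane to the dermis. It measured 2.94, 3.0 and 2.82 FPKM in parental and 1.22, 1.42 and 1.41 FPKM in deficient libraries, a 2.16-fold difference without overlap (log2 change -0.74, SE 0.09, limma adjusted p = 0.00227). COL17A1 and COL7A1, both of the epithelial anchoring complex, thus moved in opposite directions.

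COL6A1 and COL6A2 encode chains of the beaded filaments of type VI collagen and are adjacent tested genes on chromosome 21. COL6A1 measured 4.64, 5.39 and 5.10 FPKM in parental and 2.78, 3.51 and 3.37 FPKM in deficient libraries (log2 change -0.52, SE 0.11, limma adjusted p = 0.0205), a call that ended without parental library 3 or any single deficient library (highest adjusted p = 0.0914). COL6A2 measured 3.18, 4.09 and 3.67 against 2.21, 2.59 and 2.79 FPKM and did not pass (log2 change -0.40, 95% interval -0.67 to -0.12, limma adjusted p = 0.0654). It did with the length term (adjusted p = 0.0139). The ratio of these partners was 1.32 to 1.46 in parental and 1.21 to 1.36 in deficient libraries. COL6A3, their usual partner, was listed at 0.0433 FPKM or less in every library.

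COL18A1, a basement membrane collagen whose end fragment is endostatin, measured 7.45, 9.90 and 8.14 FPKM in parental and 5.51, 6.97 and 6.76 FPKM in deficient libraries. The groups did not overlap, and the difference did not pass (log2 change -0.35, 95% interval -0.67 to -0.04, limma adjusted p = 0.128), but did with the length term (adjusted p = 0.0150). With that term 5 members were lower in all. Of the short-chain network collagens, COL8A2 measured 0.417, 0.375 and 0.423 FPKM in parental and 0.133, 0.0847 and 0.174 FPKM in deficient libraries. It was too low for the main test and was lower in the fit with no filter (limma adjusted p = 0.00654). COL10A1 and COL8A1 stayed under 0.05 FPKM.

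An entry of 0 need not mean that a transcript was absent. Of the 40 rows placed nearest to COL11A2 along chromosome 6, 37 were listed at 0 in all 6 libraries, or 92.5%, against 22.6% of all placed rows. For DDR1, a collagen receptor kinase of epithelial cells that lies on the same chromosome and was also listed at 0 throughout, the count was 34 of 40. The values of COL11A2 and DDR1 are therefore not read as levels.

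Fibroblasts and pericytes also express fibrillar collagens. Whether such cells were present was not tested, and values of their other markers are given. Of 12 such markers that are not collagens, 4 were tested, none was higher in limma (1 at an unadjusted p under 0.05) and 1, FBLN1, was lower, and 8 stayed under 0.5 FPKM in every library. DCN and LUM, abundant proteoglycan genes of fibroblasts, were listed at 0 in all libraries, which need not mean that the transcripts were absent. SPARC, which is secreted with collagen, read 0.0387, 0 and 0 FPKM in parental and 0.167, 0.133 and 0.291 FPKM in deficient cells, and PDGFRB reached 0.0447 FPKM at most. PDGFRA, a growth factor receptor of fibroblasts, was also too low to test and lay higher in every deficient library, at 0.0206, 0.0788 and 0.0101 FPKM in parental against 0.258, 0.197 and 0.258 FPKM in deficient cells. The summed level of these 12 markers was 37.6 to 51.0 FPKM in parental and 26.5 to 32.6 FPKM in deficient libraries. FBLN1 made up most of this sum, at 33.9, 45.0 and 33.8 FPKM in parental and 19.9, 25.3 and 23.9 FPKM in deficient libraries. The lower sum is therefore that of FBLN1 and does not describe the other markers. TAGLN, an actin-binding protein of smooth muscle and myofibroblasts, read 1.03, 2.09 and 1.94 FPKM in parental and 2.84, 4.03 and 2.82 FPKM in deficient cells, without overlap and not past the threshold (limma adjusted p = 0.0643). Of 8 cartilage and bone markers, 7 were too low to test, and RUNX2, a transcription factor of bone, was the highest of these at 0.389 FPKM. The tested one, BGLAP, which encodes osteocalcin, read 1.84, 1.88 and 0 FPKM in parental and 2.40, 2.61 and 0 FPKM in deficient cells and did not pass in limma. Over all tested genes 7.82% were higher and 8.11% lower, the shares to set beside the marker counts of this paragraph. Of 8 epithelial markers, CLDN4 was higher, ESRP1 lower and 6 did not pass in limma. At an unadjusted limma p under 0.05, 1 was higher and 5 were lower. The summed level of these 8 markers was 6344 to 9879 FPKM in parental and 4583 to 5778 FPKM in deficient libraries.

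Genes that modify, fold, secrete, trim and crosslink collagen were taken from 3 lists of textbook members. Of 33 tested, 7 were higher, 2 lower and 24 did not pass, with a median log2 change of 0.06. Over all tested genes 7.82% were higher and 8.11% lower, the shares to set beside this count and those of the 3 lists below. Which of them passed varied with the libraries used: the number was 18 without parental library 2 and 5 without deficient library 2 or 3.

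Among hydroxylation and glycosylation genes, 3 of 13 were higher and none lower in limma (4 and none at an unadjusted p under 0.05). LEPREL1, a prolyl 3-hydroxylase, rose from 2.72, 2.04 and 2.46 to 4.63, 4.33 and 4.53 FPKM (limma adjusted p = 0.00628). PLOD3, a lysyl hydroxylase that also adds glucose to collagen, rose 1.45-fold (limma adjusted p = 0.0310), and CRTAP, a partner of the prolyl 3-hydroxylase complex, rose 1.33-fold (limma adjusted p = 0.0215). The calls of both PLOD3 and CRTAP ended without some single libraries (highest limma adjusted p = 0.137 and 0.115). P4HB and P4HA1, subunits of the prolyl 4-hydroxylase that stabilises the helix, measured 780 ± 117 and 36.6 ± 2.1 FPKM in parental cells and 810 ± 75.3 and 36.0 ± 3.6 FPKM in deficient cells (SD, n = 3 each). Their 95% intervals of the log2 change were -0.37 to 0.49 and -0.27 to 0.21.

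Among chaperone and secretion genes, 1 of 12 was higher and 1 lower. CREB3L1, a membrane-bound transcription factor known to act on type I collagen genes in bone, measured 0.371, 0.474 and 0.156 FPKM in parental and 6.99, 9.35 and 7.95 FPKM in deficient libraries. Its log2 change was 2.77 (SE 0.14, limma adjusted p = 5.13e-05), and it reached the mean required for testing through the deficient libraries. SERPINH1, the collagen chaperone HSP47, was abundant in both groups, at 414 ± 35.2 and 451 ± 34.2 FPKM (SD, n = 3 each), with a 95% interval of the log2 change of -0.23 to 0.47. CTAGE5, which helps load procollagen into transport carriers, fell 1.28-fold (limma adjusted p = 0.0336). That call ended without some single libraries (highest limma adjusted p = 0.152). P4HB and SERPINH1 transcripts were thus already abundant in parental cells.

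Among genes of propeptide cleavage and crosslinking, 3 of 8 were higher and 1 lower. ADAMTS14, a protease that removes the amino-terminal propeptide, rose from 0.674, 0.513 and 0.621 to 1.70, 2.13 and 2.1 FPKM (log2 change 0.89, SE 0.10, limma adjusted p = 0.00163). LOX, the lysyl oxidase that starts crosslinking, fell from 2.33, 1.63 and 2.13 to 0.726, 0.664 and 0.608 FPKM (log2 change -0.86, SE 0.11, limma adjusted p = 0.00339). Its relative LOXL2 rose 1.48-fold, from 8.29 ± 0.315 to 12.3 ± 0.403 FPKM (limma adjusted p = 0.00586). PCOLCE2, an enhancer of carboxy-terminal cleavage, rose 1.63-fold (limma adjusted p = 0.0120, up to 0.0697 with a single library left out). BMP1, the enzyme of that cleavage, measured 8.59 ± 0.912 and 8.60 ± 0.973 FPKM (SD, n = 3 each), with a 95% interval of the log2 change of -0.28 to 0.28.

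**Figure D4:**
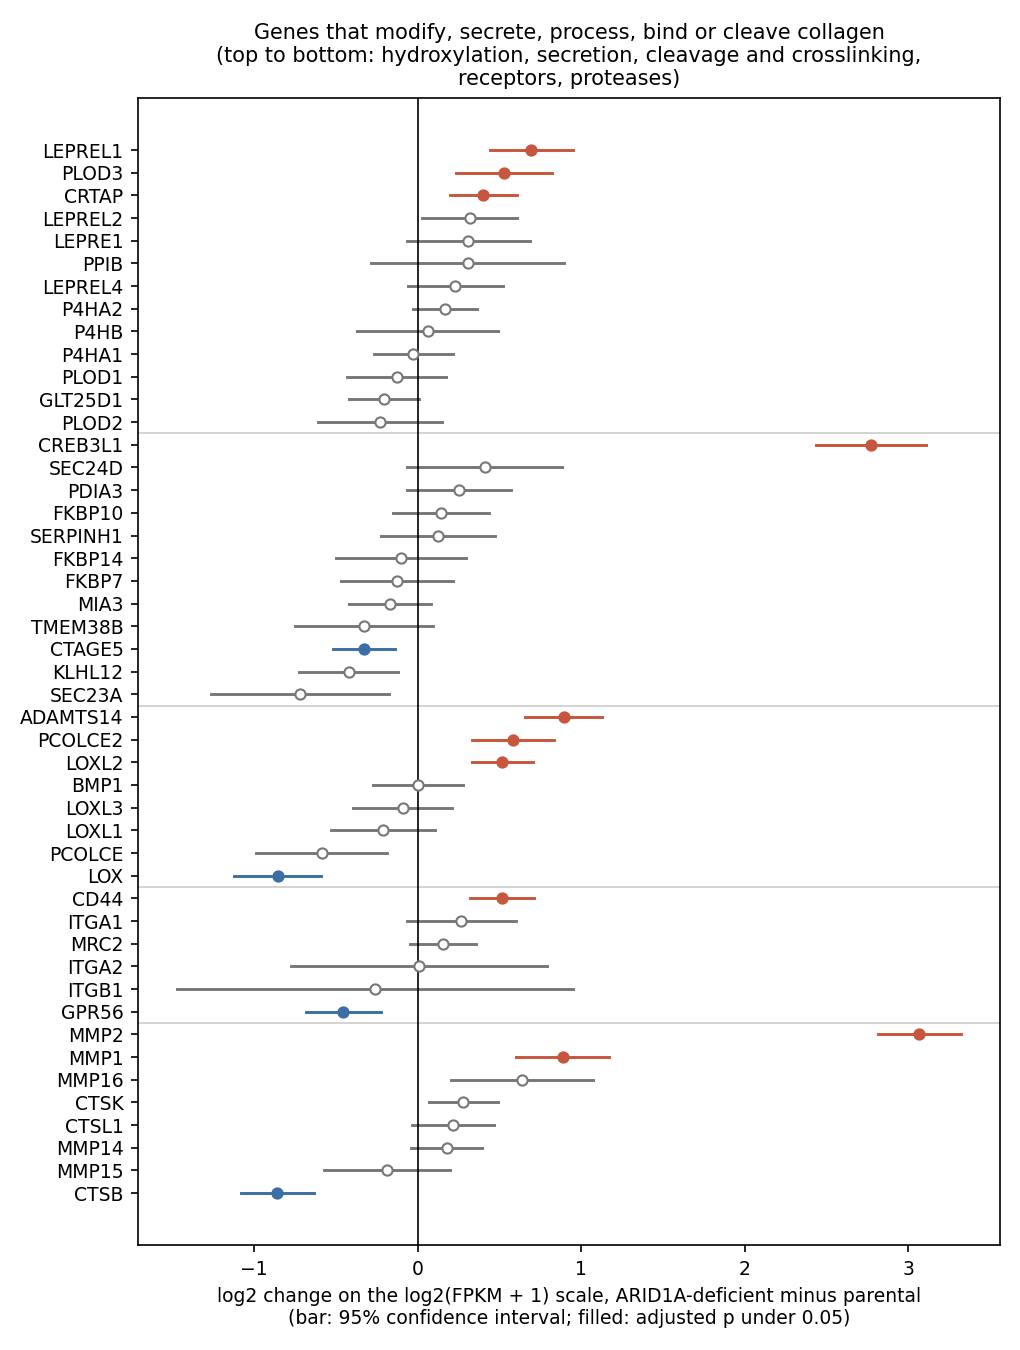
Change in tested genes of collagen modification, secretion, trimming and crosslinking, of collagen receptors and of collagen-cleaving proteases, on the log2(FPKM + 1) scale with 95% confidence intervals, 3 ARID1A-deficient against 3 parental libraries. Filled points passed the adjusted threshold. CREB3L1 and MMP2 lie at 2.77 and 3.07, and every other gene lies within 1 of zero.

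Of 6 tested collagen receptors, 1 was higher, 1 lower and 4 did not pass, beside 7.82% higher and 8.11% lower over all tested genes. CD44, a hyaluronan receptor that also binds collagen, measured 42.8, 43.5 and 42.5 FPKM in parental and 61.6, 64.4 and 59.5 FPKM in deficient libraries (limma adjusted p = 0.00697). GPR56, an adhesion receptor that binds type III collagen, fell 1.38-fold (limma adjusted p = 0.0210). Neither call held without parental library 3 (limma adjusted p = 0.0520 and 0.0825). The GPR56 call also ended without deficient library 1, 2 or 3 (limma adjusted p = 0.0768, 0.0748 and 0.0800). The collagen-binding integrin genes ITGA2 and ITGB1 varied widely inside the parental group, at 11.0 to 27.6 and 24.8 to 83.2 FPKM with the lowest values in library 2, and their 95% intervals of the log2 change were -0.78 to 0.79 and -1.47 to 0.95.

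Of 8 tested collagen-cleaving proteases, 2 were higher, 1 lower and 5 did not pass, beside 7.82% higher and 8.11% lower over all tested genes. MMP2, which degrades type IV and denatured collagen, rose from 5.34, 6.37 and 4.88 to 50.7, 56.7 and 53.3 FPKM (log2 change 3.07, SE 0.11, limma adjusted p = 1.04e-05). MMP1, the interstitial collagenase that cuts fibrillar collagen, stood at 191 ± 8.03 FPKM in parental and 354 ± 7.63 FPKM in deficient cells (SD, n = 3 each), 1.85-fold higher (limma adjusted p = 0.00365). CTSB, a lysosomal cathepsin, fell 1.83-fold (limma adjusted p = 0.00147). Transcripts of a fibrillar collagenase were thus at higher FPKM than any collagen chain in both groups.

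Called collagen genes were also set beside the 5 tested genes on each side of them along the chromosome, as ordered in RefSeq. Over all tested genes 7.82% were higher and 8.11% lower. COL3A1 and COL5A2 are next to each other on chromosome 2. Of the 9 other tested genes nearest to COL3A1, 5 were higher and none lower in limma (7 and none at an unadjusted p under 0.05), with a median log2 change of 0.40 and a maximum of 0.76, far under the 4.90 and 3.82 of the collagens. Around COL1A2 on chromosome 7, 4 of 10 were higher, with a median of 0.27 and a maximum of 1.54. Around COL17A1, COL12A1 and COL7A1 none of the 10 passed in limma, and 2, 1 and 1 had an unadjusted p under 0.05. Around COL4A1, 1 of 9 was higher, and around COL16A1 on chromosome 1 5 of 10 were lower and 1 higher. The part of such regional shifts in the collagen changes was not tested. Of the 13 called collagens, 10 lay outside the range of the other genes beside them and 3 lay inside it. The collagens were taken because they had passed the threshold and their neighbours were not. The count therefore cannot show that collagens stand apart from their regions. COL1A1, at a log2 change of 1.06, was passed by TMEM92 at 1.404, and COL4A6, at 0.81, by ATG4A at 1.46. Beside COL7A1, the row of a microRNA listed at 0 in the deficient libraries had a larger fitted change and did not pass the threshold.

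**Figure D5:**
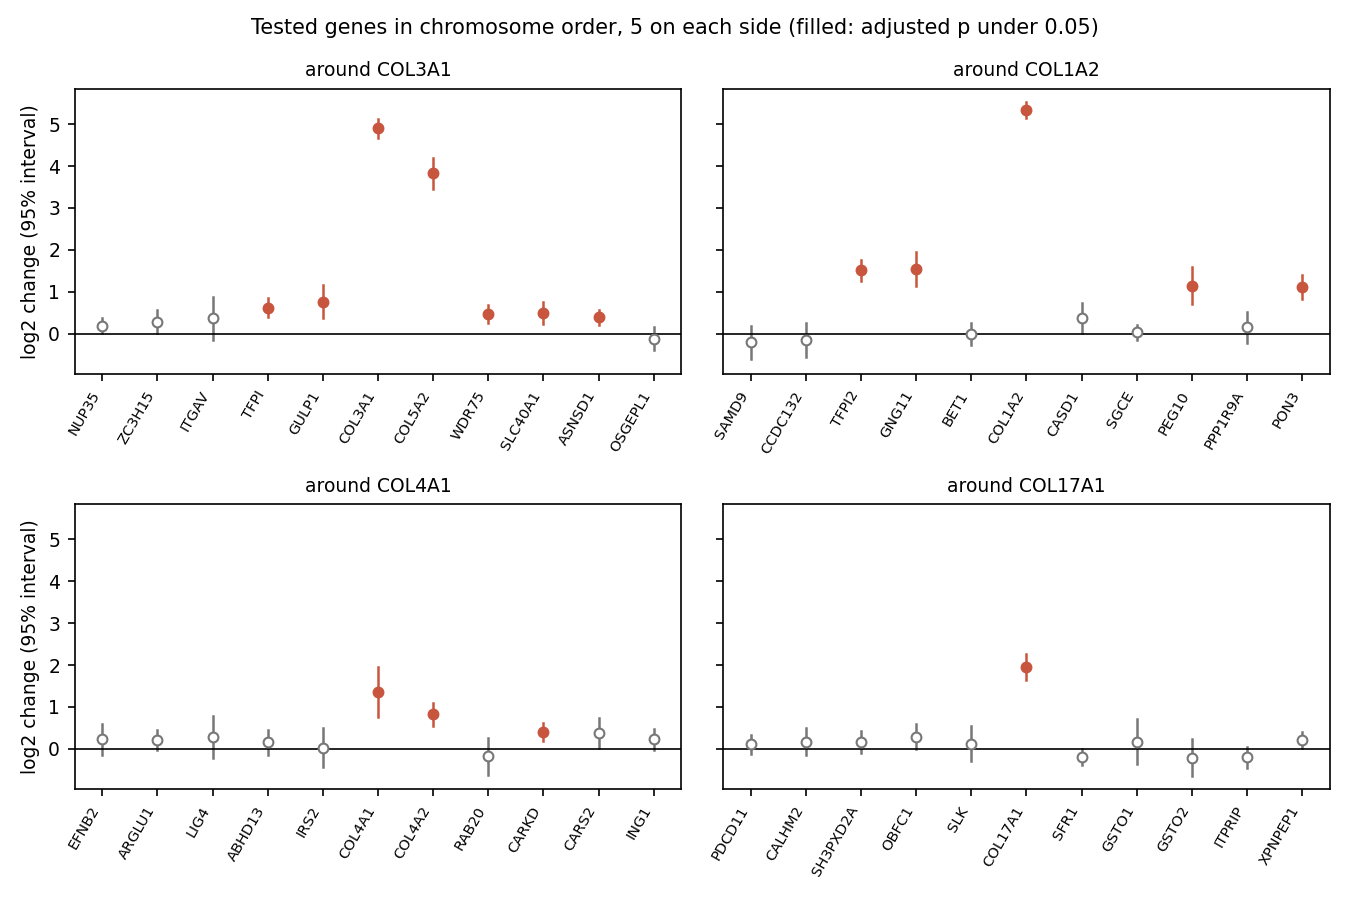
Change on the log2(FPKM + 1) scale with 95% confidence intervals for the tested genes in chromosome order around COL3A1, COL1A2, COL4A1 and COL17A1. Filled points passed the adjusted threshold. Each panel is centred on a collagen gene taken because it had passed the threshold, and that gene stands above the genes beside it. The neighbours of COL3A1 and COL1A2 include further higher genes.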

How the data were processed

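Messenger RNA was measured in 6 L3.6pl libraries, grouped by their titles. Per the labels' protocols, libraries came from a TruSeq version 2 kit, which does not mark strand. The authors deposited 1 FPKM value per gene and sample. The tools were Cuffnorm 2.2.1.2, Cuffdiff 2.2.1.5 and TopHat2 2.1.1 on build GRCh37 (hg19), per the submitters' processing notes. Their options are not given in the sources at hand. An exact 0 can be a failed estimate (TUBB is listed at 0 throughout), so no fold is given for a gene with a 0. Of 23273 rows, 28 symbols had become calendar dates and were left out.

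Values were tested with limma 3.58.1 (R 4.3.3) on log2(FPKM + 1), with trend and robust moderation and group as the only term, over genes whose mean reached 0.5 FPKM. P-values are two-sided and Benjamini-Hochberg adjusted, with a threshold of 0.05. The labels do not say that replicates came from separate cultures, so p-values measure the spread between these samples. The length term is each library's slope of log2 values on log2 GENCODE transcript length, available for 89.3% of tested genes. Fold is the ratio of group means. The procedure was tested on simulated data. Members, lists and tests were chosen with earlier results of these data known. Values in every library are given for collagens that passed or had a mean of at least 3 FPKM; of other lists, at most 6 members past the threshold are described, and genes named beyond these were chosen after their values were seen.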

Additional observations from a re-analysis of the deposited data

How the results depend on the processing

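Of the 13 collagen calls, all 13 held with a pseudocount of 0.1, quantile normalization, median scaling, the length term and no filter, and without parental library 1 or 2. A minimum mean of 3 FPKM left 14 collagens and took COL12A1, COL16A1 and COL7A1 out of testing. With single libraries left out, 9 to 11 collagens were higher and 1 to 3 lower, and the calls that ended were those of COL4A1, COL4A6 and COL6A1. The lower count was 1 with a minimum mean of 3 FPKM and 5 with the length term. COL4A5 ranged from -0.022 (without parental library 2) to 0.32 (without parental library 1) on the log2 scale. The past-threshold count was 5 to 18 for processing genes, 0 to 2 for receptors, 3 to 5 for proteases and 960 to 4113 for all genes (2043 with all libraries) with single libraries left out. With the length term it was 14 for processing genes and 3835 for all genes. The causes were not tested. Without single libraries the shift in the log2 chain ratio was -7.96 to -7.54 for COL1A1 to COL1A2, 0.40 to 0.76 for COL4A1 to COL4A2, -0.71 to -0.69 for COL4A5 to COL4A6, -4.33 to -3.62 for COL5A1 to COL5A2 and -0.17 to -0.09 for COL6A1 to COL6A2.

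Whether the replicate numbers pair the samples is not settled. The correlation of same-numbered deviations across genes was 0.219, 0.217 and -0.0131, and that of different-numbered ones was -0.267 to 0.0825. As a hint from the data, libraries 1 and 2 correlated best with their own number and library 3 did not. With the number as a replicate block, 5 collagens were lower, and the calls rose to 16 for processing genes and 4049 for all genes. COL27A1, COL6A2 and COL18A1 passed in that fit. Median scaling moved no call among collagens. Total fragments are not known, so values under about 0.1 FPKM, such as parental COL1A2, are imprecise.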

Other observations

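The chain now called COL26A1 is listed under its older symbol EMID2 and so falls outside the naming rule. It was named here after its values were seen. EMID2 measured 0.795, 0.955 and 0.915 FPKM in parental and 2.73, 3.11 and 2.84 FPKM in deficient libraries, 3.26-fold higher (log2 change 1.04, SE 0.09, limma adjusted p = 0.000535). Around the collagen genes, the following neighbours were also picked after their values were seen. On chromosome 7, TFPI2, a secreted inhibitor of matrix-degrading serine proteases, went from a mean of 73.7 to 213 FPKM. GNG11, a G protein gamma subunit, went from 127 to 367 FPKM, and PEG10, an imprinted gene derived from a retrotransposon, from 24.3 to 54.3 FPKM. BET1, which lies between GNG11 and COL1A2 in the order of tested genes, measured 13.8 and 13.6 FPKM. On the X chromosome ATG4A, an autophagy protease next to COL4A6, went from 2.93 to 9.85 FPKM (log2 change 1.46), more than COL4A6 itself. On chromosome 20 NTSR1, the neurotensin receptor, went from 3.87 to 16.3 FPKM beside COL9A3. TMEM92, next to COL1A1 on chromosome 17, went from 0.536 to 3.06 FPKM.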
